A study of Mus musculus with 78 samples.

Results

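Fgf5, Otx2, Pou3f1, Zic2, Utf1 and Grhl2 are 6 mouse genes that mark the formative and primed epiblast. They were chosen by name, for their known use as markers of the epiblast after it leaves the naive state, and they are 6 of 54446 genes in the RNA-seq tables and 6 of 54435 in the nascent RNA table. All 6 were found in both, so every member is accounted for, although not every member passed the filters on low values described with each comparison.

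The study examined TRIM28, a corepressor that silences endogenous retroviruses (ERVs), in mouse embryonic stem cells (mESCs), and asked what happens to the genes of pluripotent cells when the protein is lost. The tagged line was a V6.5 mESC line grown from picked colonies in serum and LIF, whose endogenous Trim28 carried an N-terminal FKBP degron tag; the compound dTAG-13 at 500 nM sent the tagged protein for degradation, and DMSO was the control. Poly(A) RNA was sequenced from this line in DMSO, labelled 0 h, and after 2, 6, 24 and 96 h of dTAG-13, with 3 libraries in each group. Nascent RNA was sequenced by TT-SLAM-seq, in which RNA labelled for 15 min with 500 µM 4-thiouridine is recovered. Its groups were DMSO, labelled 0 h, and 2, 6 and 24 h of dTAG-13, again with 3 libraries in each. No DMSO library of either series is labelled with a later time, so time in culture and dTAG-13 cannot be told apart. The line labelled shREPEATS, here called the shERV line, carried doxycycline-inducible short hairpin RNAs against ERV families on the V6.5 TRIM28-FKBP background. Its total RNA was sequenced after 24 h of DMSO, of dTAG-13 and of dTAG-13 with doxycycline (dTAG-13 + Dox), with 3 libraries each. The labels give a doxycycline pre-treatment for all 3 of these groups and continued doxycycline only for the last, so the groups are named here by the treatment field alone. The paper describes expressing the hairpins for 24 h ahead of dTAG-13 as its knockdown condition. Whether the hairpins were also on in the DMSO and dTAG-13 groups is not settled by the labels. Untreated parental V6.5 mESCs and V6.5 neural progenitor cells (NPCs) in DMSO gave 3 poly(A) libraries each. ChIP-seq peaks in DMSO, with no time in the sample titles, and after 24 h of dTAG-13 were available for H3K27Ac and H3K9me3 (3 libraries per condition). They were also available for RNA polymerase II (RNAPII) and the Mediator subunit MED23 (2 per condition). No label says that the replicates of a group came from separate cultures. The paper's figure legends call the 3 replicates of the nascent, time-course and shERV RNA data biological. P-values measure the spread between these libraries, part of which may be technical.

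As background, pluripotent cells of the mouse pass from a naive state, resembling the inner cell mass, through a formative state to the primed state of the epiblast before gastrulation. Naive cells use a network that includes Klf4, Esrrb and Zfp42. Formative and primed cells lower that network, keep Pou5f1 and Sox2, and turn on a further set of genes under FGF/ERK signalling. FGF5 is a secreted ligand of that signalling. OTX2, POU3F1 (also called OCT6), ZIC2 and GRHL2 are DNA-binding transcription factors: OTX2 is a homeodomain protein needed for anterior development, POU3F1 a POU-domain protein of epiblast and neural cells, ZIC2 a zinc finger protein, and GRHL2 a grainyhead factor that keeps enhancers of epithelial genes active as cells leave the naive state. UTF1 is a chromatin-associated protein of pluripotent and germ cells, expressed in mESCs already. Cultures in serum and LIF hold a mixture of cells in and between these states.

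Defining markers of the labelled cell types were present. In the tagged DMSO libraries the summed level of Pou5f1, Sox2 and Sall4 was 1531 to 1594 TPM (relative transcript abundance, scaled for gene length and depth), that of 14 naive genes 838.7 to 865.6 TPM, and that of 20 other formative and primed genes, such as Dnmt3b, Tdgf1 and Etv4, 3579 to 3647 TPM. In NPCs, Pou5f1 was below 0.1 TPM and 9 neural markers summed to 3602 to 3674 TPM, against 66.77 to 67.88 in tagged DMSO cells. The RNA of Trim28 itself was 622.5 to 626.4 TPM in the tagged DMSO libraries and 364.8 to 382.4 TPM after 24 h of dTAG-13; because dTAG-13 acts on the protein, the RNA is no check of depletion. Sequencing depth relative to the median RNA library ranged from 0.271 in the 24 h dTAG-13 replicate 1 to 1.52, and the nascent libraries held from 6477251 reads in the 24 h replicate 3 to 24238958 in the 24 h replicate 1.

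The members lie on different chromosomes except for Otx2 and Zic2, and their sequences upstream of the start differ in composition. In mm10 coordinates as annotated by GENCODE, Fgf5 (ENSMUSG00000029337) spans chr5:98254184-98277030 on the plus strand, Otx2 (ENSMUSG00000021848) chr14:48657677-48673819 on the minus strand, Pou3f1 (ENSMUSG00000090125) chr4:124656807-124660655 on the plus strand, Zic2 (ENSMUSG00000061524) chr14:122475435-122479852 on the plus strand, Utf1 (ENSMUSG00000047751) chr7:139943789-139945112 on the plus strand and Grhl2 (ENSMUSG00000022286) chr15:37233036-37363569 on the plus strand. All are protein coding. The antisense gene Otx2os1 overlaps the 5' end of Otx2, and the sources used here do not say whether the RNA-seq counting used strand, so the Otx2 RNA values are uncertain in that respect. RefSeq upstream sequence (GRCm38.p6) was at hand for 3 of the 6 members. They are shown because they were the ones at hand, and no link between RNA level and base composition was tested. The Fgf5 and Utf1 sequences adjoin the starts at which the ChIP-seq peaks were read, and the Otx2 sequence does not. Capitals mark matches to the GC box GGGCGG (on the minus strand in Fgf5, where it reads as its complement, and overlapping in 1 place in Utf1) and to TATAAA in Otx2. The Fgf5 sequence is chr5:98253934-98254183 on the plus strand, the Otx2 sequence chr14:48667645-48667894 on the minus strand, upstream of an internal start, and the Utf1 sequence chr7:139943606-139943788 on the plus strand.
Fgf5: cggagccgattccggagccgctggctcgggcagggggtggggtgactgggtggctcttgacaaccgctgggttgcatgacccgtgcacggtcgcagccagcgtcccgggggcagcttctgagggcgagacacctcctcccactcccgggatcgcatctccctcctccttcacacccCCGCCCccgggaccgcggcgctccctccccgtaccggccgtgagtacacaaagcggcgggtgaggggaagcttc
Otx2: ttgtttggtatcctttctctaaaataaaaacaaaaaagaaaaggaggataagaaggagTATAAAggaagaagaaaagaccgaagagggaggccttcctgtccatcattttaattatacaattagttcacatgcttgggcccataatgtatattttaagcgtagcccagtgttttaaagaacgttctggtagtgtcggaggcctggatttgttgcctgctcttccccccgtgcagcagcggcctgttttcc
Utf1: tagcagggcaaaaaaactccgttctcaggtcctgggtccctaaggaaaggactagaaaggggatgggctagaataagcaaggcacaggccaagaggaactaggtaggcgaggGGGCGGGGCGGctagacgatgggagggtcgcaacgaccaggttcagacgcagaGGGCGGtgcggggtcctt
The printed Utf1 stretch is 183 bases long because it stops at the first annotated exon, and a further GC box lies in the part of the window not shown. Over the whole window of 250 bases before each start, shown or not, the Fgf5 window was 70.8% G and C with 24 CpG, the Utf1 window 61.6% with 14, and the Otx2 window 42.0% with 6, against medians of 52.4% and 6 over 32851 promoters of the 250 bases before the start. Both strands were searched. GGGCGG was present in 32.7% of those promoters and TATAAA in 12.4%. Among the other letters searched, CCAAT (33.8% of promoters), the E box CACGTG (6.02%), the octamer ATGCAAAT (1.6%), the OTX motif TAATCC (6.25%) and the grainyhead motif AACCNGTT (1.79%) had no match in the 3 windows.

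In tagged mESCs in DMSO the members were spread over more than 2 orders of magnitude. Utf1 had the highest level, at 528.1 ± 14.2 TPM (SD, n = 3), followed by Pou3f1 at 85.62, Zic2 at 43.38, Grhl2 at 33.24, Otx2 at 13.82 and Fgf5 at 1.74 TPM. No neighbours in that order overlapped between libraries. The order changed after 24 h of dTAG-13, when Zic2 (48.38 TPM) stood above Pou3f1 (40.39 TPM), and after 96 h, when Utf1 (48.08 TPM) and Pou3f1 (42.26 TPM) overlapped and Grhl2 (29.29 TPM) stood above Zic2 (15.81 TPM).

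After dTAG-13 the RNA of all 6 members was lower by 96 h, but the falls came at different times. Fgf5, Pou3f1, Grhl2 and Utf1 were lower at 24 h, whereas Otx2 and Zic2 had small falls at 2 or 6 h, were not lower at 24 h and fell between 24 and 96 h. By 96 h Utf1 was at 9.11% of its DMSO level, Otx2 at 20.8%, Zic2 at 36.4%, Pou3f1 at 49.4%, Fgf5 at 56.0% and Grhl2 at 88.1%. Every change in this paragraph and the next ones is a difference of log2(TPM + 0.5) from limma with its standard error, and a gene passed at an adjusted p (Benjamini-Hochberg) below 0.05 over 17922 genes tested; the added 0.5 makes the log2 change of a low gene such as Fgf5 smaller than the change of its TPM. The 4 dTAG-13 time points were compared with the same DMSO libraries, labelled 0 h. Changes at the later times may therefore hold time in culture as well as dTAG-13, which was not tested. In bulk libraries, fewer cells expressing a gene and less RNA per cell cannot be told apart.

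At 2 h, 3 of the 6 members had passed, all lower, where 15.3% of genes passed (7.02% lower). Grhl2 fell from 33.5, 33.8 and 32.4 TPM in DMSO to 23.2, 22.3 and 22.7 TPM (log2 change -0.54 ± 0.04, adjusted p = 7.6e-06), a change below those of all but 1.58% of genes. Pou3f1 fell from 85.8, 86.1 and 84.95 to 66.7, 66.5 and 66.3 TPM (-0.36 ± 0.07, adjusted p = 0.00434). Otx2 fell from 13.76, 13.6 and 14.1 to 11.8, 9.95 and 10.2 TPM (-0.36 ± 0.10, adjusted p = 0.0224), a call lost on leaving out any 1 of 5 of the 6 libraries compared (adjusted p up to 0.0836). Fgf5, Zic2 and Utf1 differed by -0.10 to -0.14 and did not pass. The 2 h libraries did not overlap with DMSO for 5 of the 6 members, Fgf5 being the exception, and for 35.9% of all genes tested.

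At 6 h, 2 of the 6 members passed, both lower, where 33.9% of genes passed (15.5% lower; 54.2% of the passing genes were higher, and 30% with each library centred on its median). Zic2 was 34.7, 35.5 and 38.2 TPM against 43.2, 43.05 and 43.9 in DMSO (-0.26 ± 0.06, adjusted p = 0.00647). Grhl2 had come back to 29.0, 29.7 and 28.9 TPM, still below DMSO (-0.18 ± 0.04, adjusted p = 0.00638). Fgf5 was 2.08, 3.11 and 2.27 TPM against 1.80, 1.79 and 1.63, above DMSO in all 3 libraries without passing (0.40 ± 0.19, 95% interval -0.01 to 0.81, adjusted p = 0.127). Pou3f1 was 71.2, 87.0 and 89.3 TPM, so that 2 of the 3 libraries were again above DMSO and the change of -0.06 did not pass. Otx2 was 12.3, 13.1 and 12.8 TPM (-0.12, 95% interval -0.33 to 0.09, adjusted p = 0.384). Utf1 was 455, 493 and 478 TPM, below DMSO in all 3 libraries without passing (-0.15, adjusted p = 0.115), and it passed with libraries centred (-0.24, adjusted p = 0.0182).

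At 24 h, 5 of the 6 members passed, 1 higher and 4 lower, where 67.9% of genes passed (42.9% higher, 25% lower). Centring each library on its median gave 37% of the passing genes as higher in place of 63.1%, with the median log2 change of all genes at -0.16 in place of 0.13. Fgf5 fell from 1.80, 1.79 and 1.63 TPM to 0.230, 0.393 and 0.300 TPM, 17.7% of the DMSO mean (-1.48 ± 0.19). Pou3f1 fell to 40.5, 38.6 and 42.0 TPM, 47.2% of DMSO (-1.08 ± 0.07, adjusted p = 1.44e-08). Pou3f1 was past a 2-fold limit on the log2 scale, where 12.2% of genes were. Fgf5 was past it as a description only, and no other member was. Grhl2 fell to 19.8, 18.0 and 19.9 TPM (-0.78 ± 0.04, adjusted p = 3.46e-09) and Utf1 to 409, 356 and 384 TPM from 532, 539.8 and 512 (-0.46 ± 0.07, adjusted p = 4.68e-05). The libraries of these 4 genes, and those of Zic2, did not overlap with DMSO, nor did those of 70.1% of genes tested. Fgf5 was below 1 TPM in every 24 h library and entered the fit mainly through the DMSO, 2 h and 6 h libraries. Its change is therefore a description, which the counts of 5 passing and 4 lower include. It was read thinly in the shallowest library, replicate 1 at 24 h, with a mean coverage of 0.257 against 1.61 and 1.43 in the other two. It stayed lower on leaving out each library in turn.

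Otx2 and Zic2 showed no such fall at 24 h. Otx2 was 17.5, 14.6 and 12.99 TPM at 24 h against 13.76, 13.6 and 14.1 in DMSO (0.11 ± 0.10, 95% interval -0.10 to 0.32, adjusted p = 0.348); the highest value came from the shallowest library, and the difference was -0.01 without it. Zic2 was 50.8, 47.6 and 46.8 TPM against 43.2, 43.05 and 43.9, above DMSO in all 3 libraries (0.15 ± 0.06, adjusted p = 0.0426). That call turned to -0.13 (adjusted p = 0.0644) once libraries were centred on their median, and it was lost on leaving out any 1 of 5 of the 6 libraries compared. Both stood close to the median gene, the change of Zic2 being above that of 51.7% of genes and that of Otx2 above 48.5%.

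At 96 h all 6 members passed and all were lower, where 80.3% of genes passed (37.4% lower; 53.4% of the passing genes were higher, and 40.9% with libraries centred). Utf1 fell furthest, to 45.0, 44.4 and 54.8 TPM (-3.45 ± 0.07, adjusted p = 1.31e-14), a change below all but 0.597% of genes. Otx2 fell to 2.56, 3.045 and 3.04 TPM (-2.09 ± 0.10, adjusted p = 5.8e-11), Zic2 to 14.6, 15.4 and 17.4 TPM (-1.43 ± 0.06, adjusted p = 3.05e-11) and Pou3f1 to 41.25, 39.75 and 45.8 TPM (-1.01 ± 0.07, adjusted p = 6.68e-09). These 4 were past 2-fold, where 32.7% of genes were. Grhl2 was 28.2, 29.3 and 30.4 TPM (-0.18 ± 0.04, adjusted p = 0.00191). Fgf5 was 0.579, 0.819 and 1.52 TPM (-0.65 ± 0.19), with the widest spread between replicates relative to its mean of any member at this time. It entered the fit mainly through the DMSO, 2 h and 6 h libraries, so its change is a description, which the count of 6 includes.

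Between 24 and 96 h, Grhl2 passed as higher and Utf1, Otx2 and Zic2 as lower, where 79.4% of genes passed (37.4% higher, 42% lower). Grhl2 rose by 0.60 ± 0.04 (adjusted p = 1.5e-08), while Utf1, Otx2 and Zic2 fell (log2 changes -2.99, -2.19 and -1.59). Fgf5 was higher by 0.82 ± 0.19. It was below 1 TPM in every 24 h library and entered the fit mainly through the DMSO, 2 h and 6 h libraries, so its difference is a description. Pou3f1 differed by 0.06 (95% interval -0.09 to 0.22, adjusted p = 0.434). Fgf5 and Grhl2 were thus lowest at 24 h and nearer to DMSO at 96 h, Pou3f1 stood at similar levels at both times, and Otx2, Zic2 and Utf1 were lowest at 96 h.

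**Figure D1:**
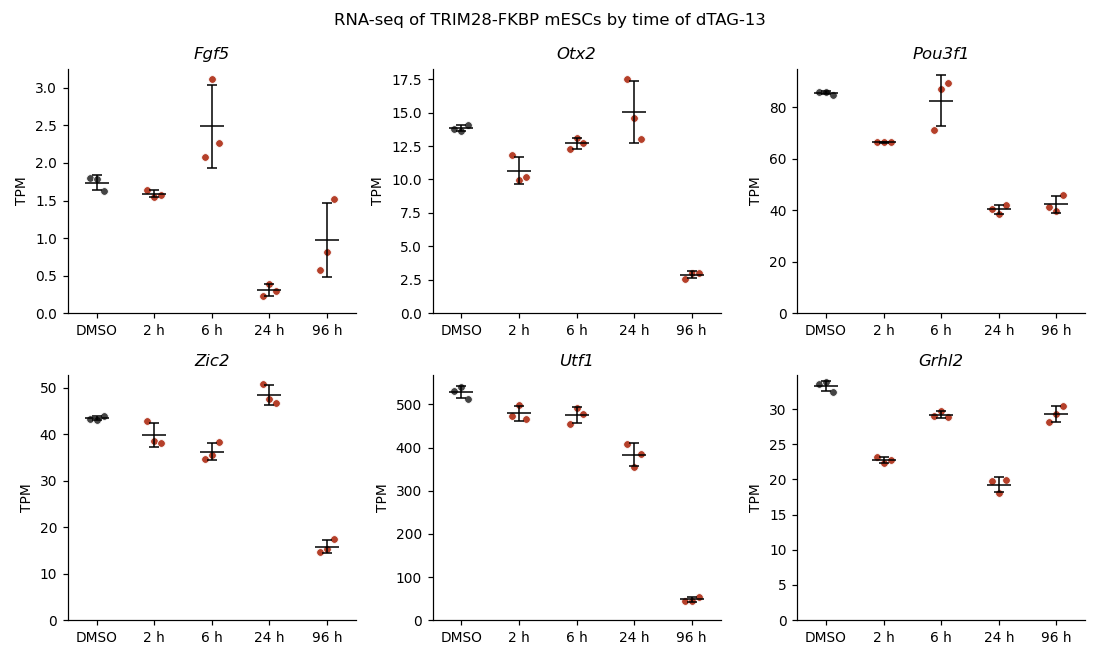
RNA level (TPM, 1 panel per gene with its own axis) of the 6 genes in tagged mESCs in DMSO and after 2, 6, 24 and 96 h of dTAG-13; points are the 3 libraries of each group, with the mean and SD. Fgf5 and Pou3f1 are below their DMSO values at 24 h, whereas Otx2, Zic2 and Utf1 have their lowest values at 96 h.

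Markers of other cell types moved at 96 h as well. Markers of feeder fibroblasts summed to 97.16 to 102.5 TPM over 10 genes in DMSO, 81.42 to 95.43 at 24 h and 1437 to 1509 at 96 h, and 9 of the 9 tested rose, with Col1a1 at 182.9 TPM against 8.162 and Lum no longer below 0.1 TPM, while Dcn stood at 1.341 TPM. Endoderm markers summed to 162.5 to 181.3 TPM over 10 genes in DMSO and 581.2 to 592.3 at 96 h, and 8 markers of trophoblast to 842.9 to 893.5 and 6287 to 6630 TPM. Most of the last sum came from the keratins Krt8 (2843 TPM) and Krt18 (3415 TPM), which many epithelia express, whereas Cdx2 was at 2.608 TPM and Elf5 at 0.1226 TPM. At 24 h endoderm markers summed to 191.1 to 198.6 TPM, above DMSO in all 3 libraries (4 rose and 3 fell of 10 tested), trophoblast markers to 638 to 712.8 TPM (1 rose and 5 fell of 7), and of the 9 feeder markers tested 4 rose and 2 fell. The part of other cells in the 96 h levels of the members was not tested.

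Over the 15 libraries of the time course, log2 levels of Otx2 and Zic2 had a Pearson r of 0.98, Otx2 and Utf1 of 0.96, Zic2 and Utf1 of 0.94, and Fgf5 and Pou3f1 of 0.87, whereas Grhl2 was negatively related to Otx2 (-0.27) and Zic2 (-0.37). These are descriptions over libraries that share the time points. Among 11926 genes with a mean of at least 5 TPM, those with the highest r to each member were Platr10, Chchd10 and Tdgf1 for Utf1 (all 1.00), Chd1l and Usp28 for Zic2 (both 0.99), Ldlrad3, Enpp3 and Ide for Otx2 (all 0.99), Zc3h3 (0.98), Gadd45a (0.97) and Zbtb45 (0.96) for Pou3f1, Atf6b (0.95), Fam222a and Dppa2 (both 0.94) for Fgf5, and Rps6kc1 (0.91), Dcun1d4 and Noct (both 0.90) for Grhl2. Tdgf1, an epiblast co-receptor of NODAL, is itself in the list of other formative and primed genes.

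Most of the wider set of formative and primed genes fell as well. Of the 20 listed, 1 rose and 6 fell at 2 h, 1 rose and 8 fell at 6 h, 2 rose and 14 fell at 24 h, and 4 rose and 15 fell at 96 h. Their median change was -0.85 at 24 h and -2.04 at 96 h, where the median of all genes was 0.13 and 0.05. At 24 h the transcription factor genes Tcf15 (-2.19), Lef1 (-2.08) and Etv4 (-1.96), the kinase gene Pim2 (-1.88), the ligand gene Fgf15 (-1.77) and the methyltransferase cofactor gene Dnmt3l (-1.67) fell most, whereas Tead2 (0.61) and Sox4 (0.34) rose. At 96 h the cadherin gene Cdh2 rose by 2.96 and Tcf15 fell by 5.29. The naive genes went down in the same libraries: 9 of 14 fell and 1 rose at 24 h (median -0.68), and 13 fell and 1 rose at 96 h (median -2.18). Pou5f1 was 1162 TPM in DMSO, 536.6 at 24 h and 102.3 at 96 h, and all 3 of Pou5f1, Sox2 and Sall4 fell at 6, 24 and 96 h.

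Genes related to the members by family or signalling did not share a direction. Of 13 paralogs, 8 were expressed enough to be tested, of which 2 rose and 4 fell at 24 h. Fgf8, another FGF ligand, rose from 2.772 to 13.98 TPM (2.15), while Fgf4, the ligand that drives ERK signalling in mESCs, fell from 134 to 77.51 TPM (-0.79) and to 1.859 TPM at 96 h (-5.83). Zic5, the neighbour of Zic2 transcribed away from it, was at -0.03 at 24 h without passing and fell by 2.45 at 96 h, so both genes of the pair were lower at the same late time. Grhl1 and Grhl3 fell at 24 h (-0.16 and -0.48). Of the FGF receptor genes, Fgfr1 rose by 0.73 at 24 h and 1.62 at 96 h. Among 9 epithelial genes, a class that grainyhead factors act on, 6 rose and 1 fell at 24 h while Grhl2 itself was lower (4 and 3 with libraries centred; 42.9% of all genes rose): Cldn3 rose by 1.17, Cldn7 by 0.78 and Epcam by 0.43, and Ovol1 fell by 0.46. At 96 h, 5 rose and 3 fell, with Cldn4 higher by 2.19 and Rab25 lower (-1.38).

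In nascent RNA Grhl2 was higher at 6 h, and Pou3f1 was too by a call that most alternatives lost. Zic2 and Utf1 did not pass at any time. The unit is FPKM over the whole gene span, introns included, so levels between genes are set per length of gene. Pou3f1, Zic2, Utf1 and Grhl2 passed the filter of 0.5 FPKM in 3 libraries; Fgf5 and Otx2 did not, and are described by their reads. At 2 h none of the 4 passed, where 3.55% of 13357 genes passed (44.5% of these higher, and 67.6% with libraries centred); 2 had an unadjusted p below 0.05, namely Pou3f1 (0.00303) and Grhl2 (0.00506), and both passed, of all 6 genes then tested, when the recovered reads were fitted with limma's voom weights (Pou3f1 0.65, adjusted p = 0.0121; Grhl2 0.44, adjusted p = 0.00165). The voom fit passed 2562 genes at 2 h, where the main fit passed 474, so these voom calls were less rare than the share above. At 6 h, 2 of the 4 passed, both higher, where 9.09% of genes passed (7.82% higher). Of the passing genes 86% were higher, and 68.2% with libraries centred.

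Grhl2, whose long span gave it 1013 to 4042 reads in the libraries of the 24 h and DMSO groups, was 1.16, 1.02 and 1.04 FPKM in DMSO, 1.43, 1.41 and 1.22 at 2 h, and 2.04, 1.88 and 1.83 at 6 h. It rose by 0.62 ± 0.06 at 6 h (adjusted p = 0.00342), to 178.3% of DMSO, in the same interval in which its poly(A) RNA was below DMSO. At 24 h it was 1.28, 1.26 and 1.20 FPKM, above DMSO in each library (0.15 ± 0.06, adjusted p = 0.1), a difference that turned to -0.10 with libraries centred on their median and to -0.15 with voom. Its poly(A) RNA at that time was 57.8% of DMSO.

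Pou3f1 nascent RNA was 4.13, 4.04 and 3.71 FPKM in DMSO, 5.53, 5.38 and 6.54 at 2 h, then 4.70, 6.76 and 5.81 at 6 h, and 2.96, 2.68 and 3.21 at 24 h, so that the libraries of each time point lay on 1 side of DMSO. It rose by 0.47 ± 0.13 at 6 h (adjusted p = 0.0474), a call lost with libraries centred, with voom (adjusted p = 0.103) and on leaving out any 1 of 5 of the 6 libraries. It fell by 0.37 on the log2 scale at 24 h (± 0.13, adjusted p = 0.0418), where 1 of 4 passed and 37.9% of genes did (5.59% lower, and 85.2% of the passing genes higher against 45.2% with libraries centred). That call was lost on leaving out any single library compared (adjusted p 0.0515 to 0.141) and was -0.82 (adjusted p = 0.00114) with voom. Both assays therefore had Pou3f1 lower at 24 h, while at 2 h its poly(A) RNA was lower and its nascent RNA was higher in all 3 libraries.

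Fgf5 was near the floor of the nascent assay, with 12, 19 and 17 reads in DMSO, then 40, 39 and 34 at 2 h, then 67, 72 and 43 at 6 h, and finally 24, 27 and 9 at 24 h. In FPKM these were 0.0720, 0.0660 and 0.0653, then 0.107, 0.120 and 0.106, then 0.181, 0.173 and 0.113, and then 0.0433, 0.0576 and 0.0608. The 6 h mean was 229.7% of DMSO and the groups did not overlap, as for 31.5% of the genes tested at 6 h. Fitted on reads with voom, Fgf5 rose by 1.01 ± 0.30 at 6 h (adjusted p = 0.0232), where voom passed 2870 genes and the main fit 1214. Its voom changes of 0.80 at 2 h (adjusted p = 0.092) and -0.76 at 24 h (adjusted p = 0.0777) did not pass. Otx2 had 43, 76 and 62 reads in DMSO, 59, 63 and 56 at 2 h, then 113, 128 and 123 at 6 h, and 170, 137 and 49 at 24 h. Its 0.365, 0.374 and 0.337 FPKM in DMSO went with 0.224, 0.275 and 0.246 at 2 h, then 0.432, 0.434 and 0.459 at 6 h, and finally 0.434, 0.413 and 0.468 at 24 h; these groups did not overlap with DMSO, as for 25.4%, 31.5% and 49.6% of genes tested at 2, 6 and 24 h, and no voom change of Otx2 passed (-0.44, 0.16 and -0.10, adjusted p 0.128 to 0.658).

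Zic2 and Utf1 did not pass in nascent RNA at any time. Zic2 was 4.25, 2.73 and 3.16 FPKM in DMSO, 3.97, 4.02 and 4.37 at 2 h (0.27, adjusted p = 0.417) and 3.19, 3.19 and 4.86 at 6 h (0.12, adjusted p = 0.7), overlapping with DMSO both times. At 24 h it was 3.70, 3.39 and 4.30 FPKM (0.16, 95% interval -0.24 to 0.55, adjusted p = 0.515). Utf1 was 14.6, 12.0 and 12.5 FPKM in DMSO and 15.2, 15.9 and 16.9 at 2 h, above DMSO in all 3 libraries (0.29, 95% interval -0.17 to 0.75, adjusted p = 0.462). At 6 h it was 15.2, 12.99 and 12.6 (0.06, adjusted p = 0.892), and at 24 h 12.99, 11.8 and 22.2 FPKM (0.20, 95% interval -0.26 to 0.67, adjusted p = 0.473); the value of 22.2 came from the shallowest nascent library, and the change was -0.07 without it. The 96 h time point, at which both genes were lowest in poly(A) RNA, was not part of the nascent series. Of 18 other formative and primed genes tested in nascent RNA, 1 rose and none fell at 2 h, 3 and none at 6 h (Lef1 0.52, Etv5 0.46, Tcf15 0.30), and 3 rose and 7 fell at 24 h, with Fgf15 at -1.26 and Etv4 at -0.99.

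**Figure D2:**
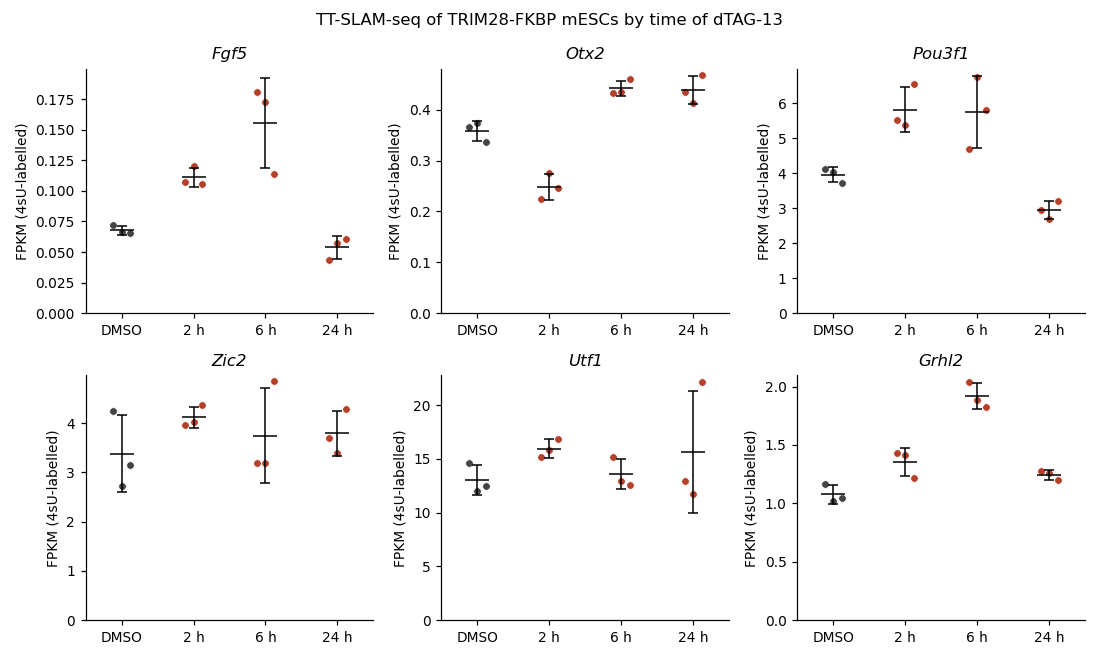
Nascent RNA (TT-SLAM-seq, FPKM over the gene span, 1 panel per gene with its own axis) of the 6 genes in tagged mESCs in DMSO and after 2, 6 and 24 h of dTAG-13; points are the 3 libraries of each group, with the mean and SD. Grhl2 and Fgf5 have their highest values at 6 h, and Pou3f1 its lowest at 24 h.

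The shERV line asks whether the same genes respond to dTAG-13 there and whether they stay at their DMSO level when doxycycline is kept on. Its levels came from total RNA and those of the tagged line from poly(A) RNA. The line, the library preparation and the doxycycline pre-treatment in the shERV labels cannot be told apart, and levels were tested only within the line. Fgf5 was below the filter, at 0.432, 0.454 and 0.743 TPM in DMSO, 0.583, 0.347 and 0.412 in dTAG-13 and 0.422, 0.542 and 0.208 in dTAG-13 + Dox, with the 3 groups overlapping. Of the other 5, 3 passed for dTAG-13 against DMSO, 2 higher and 1 lower, where 54% of 16166 genes passed (41.2% higher, 12.8% lower; 76.4% of the passing genes were higher, and 46.7% with libraries centred).

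Utf1 fell from 133, 144 and 148 TPM to 112, 113 and 102 (-0.38 ± 0.06, adjusted p = 0.000131). Otx2 rose from 3.29, 2.43 and 3.30 to 4.16, 4.43 and 4.58 TPM (0.49 ± 0.13, adjusted p = 0.00777; 0.33 with adjusted p = 0.086 once libraries were centred). Grhl2 was 15.7, 17.2 and 16.8 TPM and then 19.0, 17.7 and 18.4 (0.14 ± 0.05, adjusted p = 0.0412); this small rise was lost on leaving out any 1 of 4 of the 6 libraries and turned to -0.02 with libraries centred. Pou3f1, at 25.4, 27.75 and 27.6 and then 31.0, 29.15 and 28.2 TPM (0.13, adjusted p = 0.0854), and Zic2 (0.12, adjusted p = 0.145) did not pass, and both turned to -0.04 with libraries centred.

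With doxycycline kept on, 4 of the 5 genes differed from dTAG-13 alone, 1 higher and 3 lower, where 46.8% of genes did (17.5% higher, 29.3% lower; of the passing genes 37.4% were higher, and 52.6% with libraries centred). Utf1 was 140.0, 146.5 and 148 TPM, higher by 0.41 ± 0.06 (adjusted p = 9.48e-05), and Otx2 was 2.23, 2.76 and 1.93 TPM, lower (-0.81 ± 0.13, adjusted p = 0.000369). Zic2 fell by 0.20 (adjusted p = 0.0277) and Pou3f1 by 0.18 (adjusted p = 0.0242), calls that were each lost on leaving out several single libraries, with adjusted p up to 0.0864 and 0.105. Against DMSO, none of the 5 passed with dTAG-13 + Dox by limma, where 0.0619% of genes passed (10 genes, 80% of them higher, and 46.2% of 13 with libraries centred); 1 of them, Otx2, had an unadjusted p below 0.05 (0.0315; change -0.32). The changes of the other 4 lay between -0.08 and 0.08, with 95% intervals within -0.23 and 0.20. The comparisons within this line share libraries. The 14 naive genes all fell with dTAG-13 in this line (median -1.38) and all 14 were higher with dTAG-13 + Dox than without Dox, whereas of the 20 other formative and primed genes 7 rose and 11 fell with dTAG-13.

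The response at 24 h of dTAG-13 itself differed between the lines for Pou3f1 and Grhl2. The test was an interaction, the dTAG-13 change in the shERV line minus that in the tagged line, over 12 libraries; of the 5 members other than Fgf5, 2 passed, both higher in the shERV line, where 51.4% of 17653 genes passed (26.2% higher; of the passing genes 51% were higher, and 64.1% with libraries centred). The difference was 1.20 ± 0.07 for Pou3f1 (adjusted p = 4.85e-07) and 0.92 ± 0.08 for Grhl2 (adjusted p = 3.04e-06). Fgf5 entered this fit only through the tagged DMSO libraries, where it was highest, and dropped below the filter when any 1 of these was left out, so its difference of 1.34 ± 0.22 is given as a description and not as a test. Zic2 (-0.03), Utf1 (0.09) and Otx2 (0.38, adjusted p = 0.0668) did not pass; the Otx2 difference passed with libraries centred (0.50, adjusted p = 0.0305) and without the shallowest 24 h library (0.50, adjusted p = 0.0143). The DMSO levels were also unlike: Pou3f1 in the shERV line stood at 31.4% of its level in tagged DMSO cells, Grhl2 at 49.8% and Fgf5 at 31.2%, with feeder fibroblast markers at 694.4 to 719.3 TPM against 97.16 to 102.5 and trophoblast markers at 1458 to 1625 TPM against 842.9 to 893.5. With dTAG-13 the trophoblast sum was 2243 to 2380 TPM in the shERV line and 638 to 712.8 TPM in the tagged line, and in the interaction 4 of 7 of these markers were higher and none lower (median 0.77). The part of these differences in the response of the members was not tested. The DMSO libraries were labelled 24 h in the shERV line and 0 h in the tagged line. The shERV labels also give a doxycycline pre-treatment. Both points, and the kind of library, cannot be told apart from the line.

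**Figure D3:**
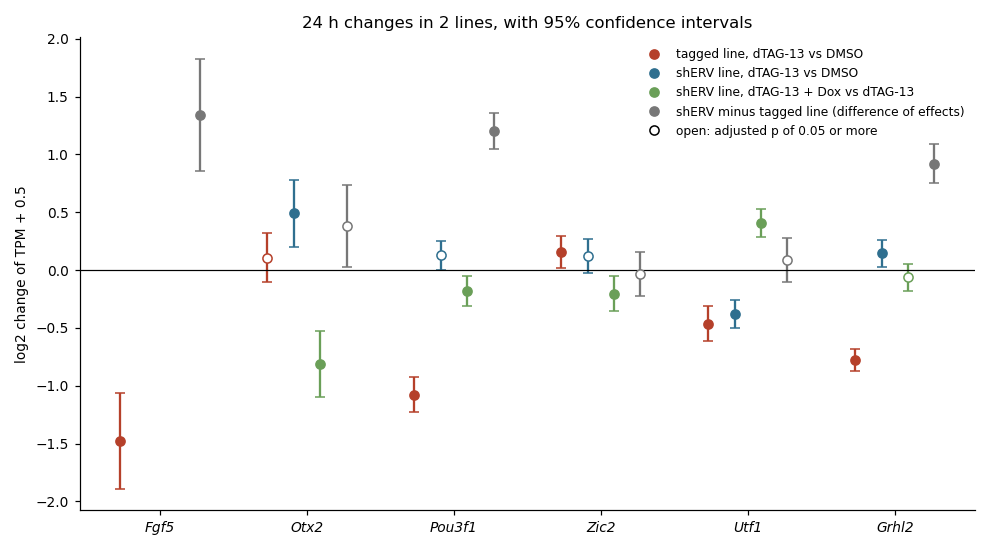
Log2 change of TPM + 0.5 (y axis; points with 95% intervals) at 24 h for each of the 6 genes: dTAG-13 against DMSO in the tagged line and in the shERV line, dTAG-13 + Dox against dTAG-13 in the shERV line, and the difference between the lines in the dTAG-13 change; open points did not pass, and a missing point means that the gene was below the filter. The tagged line has Fgf5, Pou3f1 and Grhl2 at -1.48, -1.08 and -0.78, and the differences between lines for these 3 are 1.34 (a description for Fgf5, which entered through tagged DMSO alone), 1.20 and 0.92.

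Set against parental V6.5 mESCs, the tagged line in DMSO already differed in all 5 members other than Fgf5, where 66% of 17458 genes differed (25% higher in parental cells, 41% lower; of the passing genes 37.9% were higher, and 60.8% with libraries centred). Pou3f1 was 10.5, 9.09 and 10.3 TPM in parental cells against 85.8, 86.1 and 84.95, lower (log2 difference -3.04, adjusted p = 6.07e-10), and Grhl2 was 11.95, 12.0 and 12.6 TPM, lower (-1.41, adjusted p = 1.06e-07). Fgf5 was 0.792, 1.075 and 0.917 TPM (-0.65). Otx2 (18.3, 19.2 and 19.5 TPM), Zic2 (59.4, 57.3 and 60.8 TPM) and Utf1 (633, 633 and 631 TPM) were higher by 0.45, 0.44 and 0.26. The 14 naive genes were higher in parental cells in 13 cases (median 1.48), summing to 2556 to 2595 TPM, and of the 20 other formative and primed genes 6 were higher and 12 lower, with Pim2 at -2.71. The labels give the parental cells as untreated, and the tag, the picked colonies, the DMSO and any difference between experiments cannot be told apart here. The tagged DMSO libraries are the same as those of the time course, and Fgf5 passed the filter here mainly through them, so its differences from parental cells and NPCs are descriptions. Trophoblast markers summed to 53.61 to 56.55 TPM in parental cells against 842.9 to 893.5 (6 of 7 lower, median -3.64), and feeder markers to 151.8 to 155.4 against 97.16 to 102.5 TPM (7 of 9 higher). Their part in the differences of the members was not tested.

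In NPCs the genes went in both directions, with all 5 members other than Fgf5 different from tagged DMSO mESCs where 89% of genes were (49.5% higher, 39.5% lower; 55.6% of the passing genes were higher, and 41.4% with libraries centred). Otx2 was 533, 564 and 538.5 TPM, the highest of the 6, and Zic2 was 225.9, 228.5 and 225.3 TPM, so these genes, which also act in the neural plate, were higher by 5.25 and 2.37. Pou3f1, despite its neural role, was 17.7, 17.7 and 19.0 TPM, lower (log2 difference -2.21), and Fgf5 0.517, 0.566 and 0.5665 TPM (-1.09). Utf1 was listed at 0 in all 3 NPC libraries and Grhl2 at 0, 0.0219 and 0.0659 TPM. All 9 epithelial genes and all 14 naive genes were lower in NPCs too. The paralogs summed to 1257 to 1271 TPM against 258.5 to 267.3, and 9 of 12 tested were higher.

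**Figure D4:**
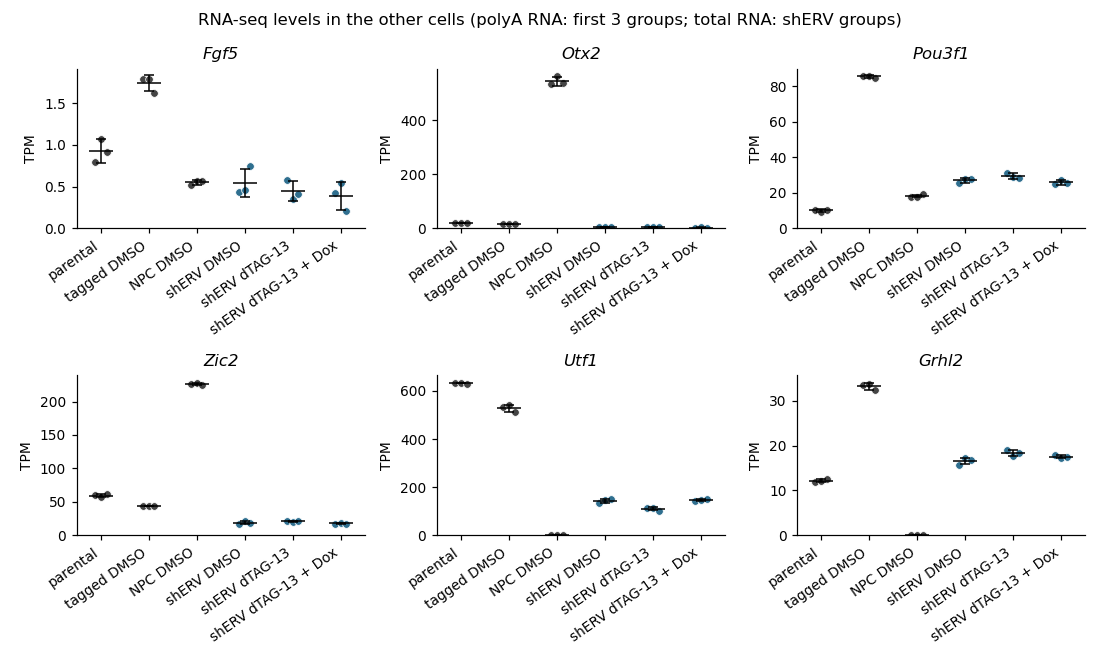
RNA level (TPM, 1 panel per gene with its own axis) of the 6 genes in parental V6.5 mESCs, tagged mESCs in DMSO and NPCs (poly(A) RNA), and in the shERV line in DMSO, dTAG-13 and dTAG-13 + Dox (total RNA); points are single libraries, 3 per group, with the mean and SD. Otx2 and Zic2 are highest in NPCs, and Utf1 and Grhl2 are at or near 0 there.

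ChIP-seq peaks at the annotated starts, read as the highest fold enrichment among peaks within 2 kb, were lower or gone for MED23 at every member after 24 h of dTAG-13. Zic2 had the highest MED23 peak, 54.7 and 54.1 in DMSO and 9.19 and 8.66 in dTAG-13. Grhl2 went from 21.1 and 24.4 to 5.15 and 5.47, and Utf1 from 19.5 and 15.1 to 3.53 and 3.61. Pou3f1 (9.70 and 10.5), Fgf5 (6.20 and 6.90) and Otx2 (5.54 and 5.24) had a peak in both DMSO libraries and in neither dTAG-13 library. Over all its annotated transcript starts, a window chosen after the data were seen, Otx2 went from a mean of 20.3 to 9.56. This was the common pattern: 60.7% of 21921 protein-coding starts had a MED23 peak in both DMSO libraries, and 64.4% of these had none in either dTAG-13 library. Of the starts with a peak in both libraries of both conditions, 95.8% were lower without overlap. The median ratio at those starts was 0.361, against 0.164 at Zic2, 0.206 at Utf1 and 0.233 at Grhl2.

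RNAPII peaks were present in both DMSO libraries at Pou3f1 (9.11 and 9.05), Grhl2 (6.26 and 5.72) and Utf1 (5.74 and 5.10), and in 1 library at Zic2 (2.85). After dTAG-13 Pou3f1 had 7.11 and 6.26 and the others none; 40.7% of starts had a peak in both DMSO libraries and 39.6% of these had none after dTAG-13. H3K27Ac, a mark of active promoters and enhancers, had a peak in all 3 DMSO libraries at Grhl2, Utf1 and Zic2, and at 46.8% of starts, of which 64.2% had one in all 3 dTAG-13 libraries and 1.15% in none. At Grhl2 it was 5.46, 9.50 and 6.89 in DMSO and 3.28, 8.76 and 3.85 in dTAG-13, overlapping. At Utf1 it was 6.05, 6.87 and 4.36 and then present in 1 of 3 libraries (6.09), and at Zic2 5.70, 4.80 and 4.19 and then in 1 of 3 (3.01). Pou3f1 had a peak in 1 of 3 libraries of each condition, and Fgf5 and Otx2 had none of RNAPII or H3K27Ac. No member had a peak of H3K9me3, the heterochromatin mark, in any library, where 11.5% of starts had one in at least 1.

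Peak presence depends on how many peaks each library gave, and these numbers fell with dTAG-13: from 63045 and 58925 to 15335 and 14551 for MED23, and from 19853 and 19194 to 8182 and 7689 for RNAPII. H3K27Ac gave 30259, 117348 and 45662 peaks in dTAG-13 against 88050 to 117475 in DMSO, and the library with 117348 was the one with a peak left at Utf1 and Zic2. How much of the change at the members comes with the number of peaks called was not tested. No test was made on peak heights, for which an exact permutation test of 3 against 3 libraries cannot go below 0.1 and libraries without a peak give no height.

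**Figure D5:**
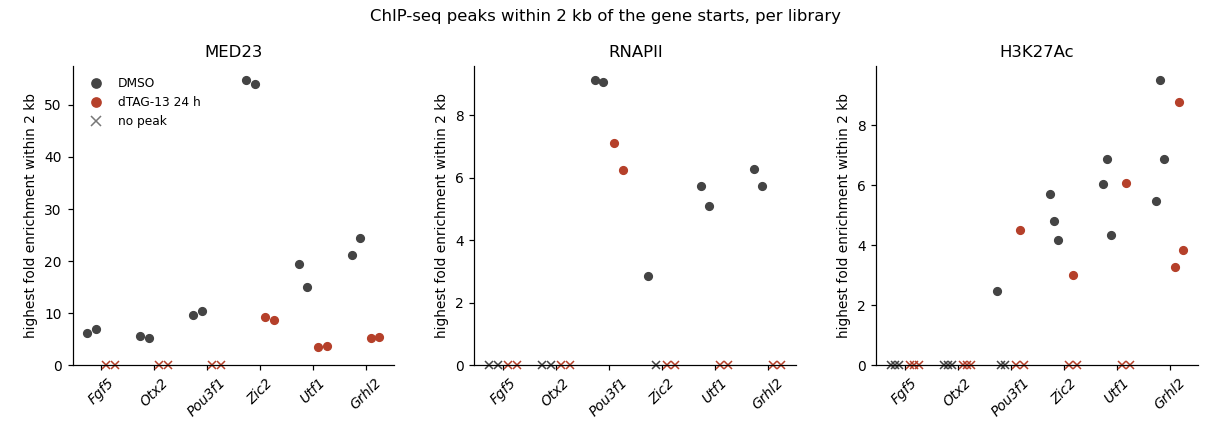
Highest fold enrichment of deposited peaks (y axis) within 2 kb of the annotated start of each of the 6 genes, for MED23, RNAPII and H3K27Ac in DMSO (grey) and after 24 h of dTAG-13 (red); points are single libraries, and crosses at 0 are libraries with no peak. MED23 at Zic2 drops from 54.7 and 54.1 to 9.19 and 8.66.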

How the data were processed

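Poly(A) or total RNA, 4-thiouridine-labelled nascent RNA and ChIP-seq peaks were analysed from the tables made by the authors. For RNA-seq, the submitters' processing notes name cutadapt 2.4, STAR 2.7.5a and StringTie 2.0.6 with mm10, and the deposited values are TPM per gene, with mean coverage beside them as a signal of depth. For TT-SLAM-seq the authors counted reads with T-to-C conversions by strand over GENCODE genes and deposited FPKM. Steps in these values corresponded to whole reads over the gene span, with 98.1% to 98.7% of values of up to 20 reads within 0.1 of a whole number, from which reads per library were recovered. For ChIP-seq the notes name BWA, GATK 4.1.4.1, MACS2 and deepTools 3.4.3, and the deposited peaks carry a fold enrichment, a ratio to background, called per library. TPM and FPKM are relative within a library, so a change of total RNA is not seen. Hi-C and single-cell RNA-seq of embryos were not analysed here.

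The members, gene lists and tests were chosen with earlier results of these data known. Genes with at least 1 TPM (0.5 FPKM) in at least 3 libraries were tested with limma 3.58.1 in R 4.3.3 on log2(value + 0.5), with a mean-variance trend and Benjamini-Hochberg adjustment over all genes tested, separately for the time course, the nascent series, the shERV line, the set of lines and the 12 libraries of the line-by-treatment interaction. The scripts were tested on simulated data. The report gives all 6 members in every comparison, the 3 genes most correlated with each, and from each list the members with the largest changes, except for some genes that are not reported here. Positions were checked against the GRCm38 annotation, where 53225 of 53229 shared gene IDs had the same position. Gene IDs repeated in a table were summed. No column lacked a sample. Alternatives were other pseudocounts (0.1 and 1), filters, centring of libraries, a replicate block, fits of the compared groups alone, voom on recovered reads, leaving out each library, and other windows and peak sets; the window over every transcript start was chosen after the data were seen.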

Additional observations from a re-analysis of the deposited data

Results flagged for a closer look

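The change after 24 h of dTAG-13 was higher in the shERV line than in the tagged line for Pou3f1 and Grhl2, and for Fgf5 as a description. In limma's interaction fit (Benjamini-Hochberg over 17653 genes), 51.4% of all genes passed and 26.2% passed as higher. For Fgf5 the difference was 1.3417 on the log2 scale, with TPM falling to 17.7% of DMSO in the tagged line and the libraries overlapping in the shERV line; Fgf5 entered the fit only through tagged DMSO, its highest group, and dropped out when any 1 of those 3 libraries was left out, so this value is a description. For Pou3f1 it was 1.203, with 47.2% of DMSO in the tagged line and 109.4% in the shERV line. For Grhl2 it was 0.9197, with 57.8% and 110.8%. The line, the kind of library (poly(A) or total RNA) and the doxycycline pre-treatment in the shERV labels cannot be told apart. Nor can the time on the DMSO labels, 24 h in the shERV line and 0 h in the tagged line. No group held 4 or more libraries, so single libraries were not tested for standing apart.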

How the results depend on the processing

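Of 75 member changes fitted, 46 passed, and 38 of these kept direction and side of the threshold in every alternative that still tested the gene. Alternatives in which a gene fell below the filter were not counted: in the difference between lines, Fgf5 had 14 alternatives and Pou3f1 18. Both counts include the Fgf5 values given as descriptions, namely 24 h and 96 h against DMSO, 96 h against 24 h, parental cells, NPCs and the difference between lines. Over all alternatives, 909 of 993 values of expression and nascent RNA kept both, 48 lost the call, 11 gained it and 25 turned sign. The causes were not tested beyond what the alternative itself changes.

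Counts of members past the test moved mainly in nascent RNA. At 2 h, where 0 passed, centring of libraries gave 1 and voom 2, and leaving out single libraries 0 to 1. At 6 h, where 2 passed, centring, fitting the compared groups alone and the replicate block each gave 1, a mean of at least 5 FPKM (1 member tested) 0, and leaving out single libraries 1 to 2. At 24 h, where 1 passed, no filter, a mean of at least 5 FPKM and the replicate block gave 0, and leaving out any single library 0. In the shERV line centring gave 1 in place of 3 for dTAG-13 against DMSO (2 to 4 without single libraries), and no filter gave 2 in place of 4 for dTAG-13 + Dox against dTAG-13 (2 to 4). Peaks in every library were found for 5 of 24 mark and member pairs, for 3 within 500 bp or among the top 10000 peaks, and for 9 within 10 kb.

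Changes that turned sign were small. With libraries centred they were -0.1822 for Otx2 and -0.1346 for Zic2 in RNA at 24 h; in nascent RNA -0.0957 for Grhl2, -0.0388 for Utf1 and -0.0838 for Zic2 at 24 h and -0.0075 for Utf1 at 6 h; in the shERV line with dTAG-13 -0.0204 for Grhl2, -0.0370 for Pou3f1 and -0.0416 for Zic2, with dTAG-13 + Dox against DMSO -0.0119 for Grhl2 and -0.0600 for Utf1, and against dTAG-13 0.0085 for Grhl2; and 0.0885 for Zic2 in the difference between lines. With voom they were -0.1469 for Grhl2, -0.2606 for Utf1 and -0.1813 for Zic2 at 24 h and -0.0585 for Utf1 at 6 h. Leaving out single libraries gave -0.0059 to 0.2037 for Otx2 in RNA at 24 h (lowest without 24 h replicate 1), -0.1207 to 0.0419 for Pou3f1 at 6 h (highest without 6 h replicate 1), -0.0685 to 0.3753 for Utf1 in nascent RNA at 24 h (lowest without replicate 3) and -0.0187 to 0.1424 at 6 h (lowest without replicate 1), -0.0553 to 0.2805 for Zic2 in nascent RNA at 6 h (lowest without replicate 3), -0.0140 to 0.0667 for Utf1 with dTAG-13 + Dox against DMSO (lowest without DMSO replicate 1), and -0.0933 to 0.0352 for the Zic2 difference between lines (above 0 without shERV DMSO replicate 2 or the tagged 24 h replicate 1, 0.0031).

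Libraries of the same replicate number were at most weakly alike: of same-numbered pairs, 1 of 30 in the time course, 3 of 18 in nascent RNA, 0 of 9 in the shERV line and 1 of 9 among the lines had deviations correlated above 0.1, and 8 of 15, 7 of 12, 2 of 9 and 6 of 9 libraries were closest to one of their own number. The median r of same-numbered pairs was 0.026, 0.019, -0.002 and 0.008, against -0.018, -0.014, 0.012 and -0.007 for other pairs. Whether these differ by more than chance was not tested. With the replicate block, 4 in place of 5 members passed in RNA at 24 h (Zic2 lost), 2 in place of 3 with dTAG-13 in the shERV line (Grhl2 lost), 1 in place of 2 at 6 h and 0 in place of 1 at 24 h in nascent RNA (Pou3f1 lost in both), and no other count of members moved.

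Numbers of genes passing varied by over 1.5 times in nascent RNA: 474 at 2 h became 9 with the compared groups alone, 32 at a mean of at least 5 FPKM and 2562 with voom; 1214 at 6 h became 486, 29 and 2870; and 5063 at 24 h became 201 at that mean, 8234 with no filter and 7607 with voom. The 10 genes for dTAG-13 + Dox against DMSO became 6 with a pseudocount of 0.1 and 21 at a mean of at least 5 TPM. In RNA at 2 h, 2736 genes became 1666 and 1739 without DMSO replicates 1 and 2. In nascent RNA at 2 h, 164 and 71 passed without DMSO replicates 1 and 2, 64 and 72 without 2 h replicates 1 and 2, and 754 passed without 2 h replicate 3; at 6 h, 291 and 226 passed without DMSO replicates 1 and 2, and 180, 765 and 456 without 6 h replicates 1, 2 and 3. For dTAG-13 + Dox against DMSO, 3 and 4 passed without DMSO replicates 1 and 3, and 5 and 4 without dTAG-13 + Dox replicates 1 and 3.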

Other observations

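Some members differed in direction between nascent and poly(A) RNA at the same time, as side-by-side values with no test of the difference between assays. At 6 h Grhl2 was at 178.3% of DMSO in nascent RNA and 87.8% in poly(A) RNA, and at 2 h Pou3f1 was at 146.8% and 77.7%. Fgf5 had the same direction in both assays at 6 h, at 229.7% and 142.9% of DMSO, and at 24 h, at 79.5% and 17.7%. Trim28, the targeted gene, was at 71.6% of DMSO in nascent RNA at 2 h and 96.1% in poly(A) RNA.

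The H3K27Ac peak with the highest fold enrichment at Utf1 in dTAG-13 libraries (6.09) was close to those in DMSO (4.36 to 6.87), and it came from the library with 117348 peaks; the other two, with 30259 and 45662 peaks, had none at this start.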
